A study of Mus musculus with 13 samples.

Results

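Expression was compared between 2 mouse RNA sources, NT1p12 and TBVp12, on the 4 two-colour arrays whose 2 channels held these sources. These were 4 of the 13 arrays of the series and were chosen by the source names of their channels, not by any measured value. Reading p12 as passage 12, both lines were compared at the same passage. The title of the series names Sall4 -/- together with NT1 and TBV, every sample is labelled mouse total RNA, and the labels give no genotype for TBV, no strain, no treatment and no cell type. A mouse embryonic stem cell line is known as TBV2, but the labels do not say that TBV is this line. The labels name 1 NT1 source and 1 TBV source for these arrays, so the 4 arrays were technical repeats of 1 comparison. NT1p12 was labelled with the dye Cy5 on arrays 1 and 2, and TBVp12 on arrays 3 and 4.

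Sall4 encodes a zinc finger transcription factor that, together with Oct4 (encoded by Pou5f1), Nanog and Sox2, belongs to the network that keeps embryonic stem cells undifferentiated. Genes such as Zfp42, Esrrb and the Klf factors mark this state, while simple epithelial keratins mark trophectoderm and fibrillar collagens mark fibroblasts such as feeder cells. On a two-colour array both RNAs compete for the same spot, and exchanging the dyes between arrays lets a preference of a spot for a dye cancel when the arrays are averaged.

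The deposited values were read as log2 ratios of Cy5 over Cy3, each array was centred on its median, and arrays 3 and 4 were multiplied by -1, so that a value above 0 means more signal from NT1p12. The sources used here state neither the log base nor which channel is the numerator. The reading of Cy5 as numerator is therefore likely at most, because Cy5 is the usual numerator and the labels list the Cy5 source first on each array. If it were the reverse, every sign given here would turn, and genes called higher and lower would change places. The table holds ratios only, so the level of a marker, and with it the cell type, could not be checked.

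Values with no decimals were common. The 4 arrays held 69911 values, 8329 (11.9%) of them whole numbers. Not 1 of the 5399 values at or beyond 1 in size (0 of 5399) kept a decimal. A -1 therefore stands for a range of ratios, and a 0 without decimals may do so too. Whether the values were rounded or truncated is not known. The number of arrays limits the precision, and every SD here is the spread over technical repeats (n = 4 arrays), which leaves out any spread between cultures. For this reason no p-value is given for NT1p12 against TBVp12.

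Array 3 stood apart from the other arrays. Across the 15419 probes with a value on all 4 arrays, the turned ratios of arrays 1 and 2 correlated at r = 0.60, and array 4 correlated with these at 0.44 and 0.46 although its dyes were exchanged. Array 3 correlated at -0.10 with array 1, at -0.21 with array 2 and at 0.17 with array 4, which has the same dye orientation. These correlations run across probes, which share an array and are not independent. The part of array 3 in the results was not tested, and the counts of calls and the list medians are given with and without it.

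**Figure D1:**
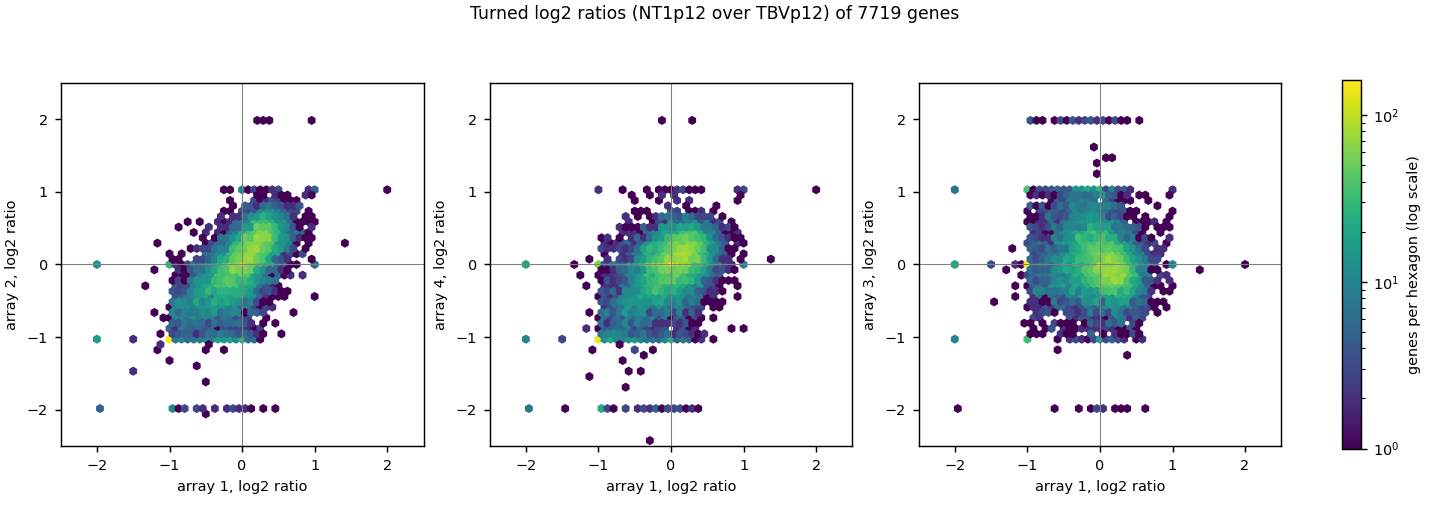
Turned log2 ratios (NT1p12 over TBVp12) of 7719 genes on array 1 (x axis) against arrays 2, 4 and 3 (y axes), with the colour giving the number of genes per hexagon on a log scale. Genes lie along the rising diagonal for arrays 2 and 4 and not for array 3, the rows and columns of points at whole numbers are values without decimals, and 20, 21 and 31 genes lie outside the axes.

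More genes were lower than higher in NT1p12. A gene was called when its 4 turned values lay on the same side of 0 and the mean of the 2 dye orientations was at least 0.5 on the log2 scale, which is a 1.41-fold ratio. Of 7719 genes with a value on all 4 arrays, 333 (4.31%) were called lower and 27 (0.35%) higher, so that 92.5% of the calls were lower. The excess of lower genes lay in the large ratios, as 903 genes (11.7%) were below 0 on all 4 arrays and 832 (10.8%) above, and the median over all genes was 0.02. At a log2 ratio of 1 or more there were 56 lower genes and 1 higher.

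Without array 3, 822 genes (10.6%) were called lower and 122 (1.58%) higher, and 87.1% of the calls were lower. These included 325 of the 333 and 25 of the 27, which is nearly fixed by the choice. Arrays 1, 2 and 4 of these genes lay on one side of 0 by the rule of the call. Without array 3, a call asked only arrays 1, 2 and 4 to lie on one side of 0. Array 4 alone then stood for its dye orientation, with as much weight as arrays 1 and 2 together. It had the widest spread over probes (SD 0.81, against 0.58, 0.67 and 0.55 on arrays 1 to 3). It also had the most whole numbers (17.1%, against 8.08%, 13.0% and 9.24%). With arrays centred on the mean instead of the median, 376 genes were called lower and 83 higher, and 81.9% of the calls were lower. That centring adds the same amount to every gene and moved the median over all genes from 0.02 to 0.09, so a list median near 0 can change side with it and keep its distance from all genes. Among the 333 lower genes, array 3 was the nearest to 0 of the 4 arrays in 194. The median ratio of these 333 genes was -0.73, -0.68, -0.40 and -0.98 on arrays 1 to 4. A whole number stood among the values of 183 of the 333 lower and 6 of the 27 higher genes, against 1184 (15.3%) of all genes. Every value of 1 or more in size lacked decimals and a call asks for a large ratio. More whole numbers among called genes are therefore in part fixed by the rule.

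Sall4 was lower in NT1p12 on each array. Its log2 ratios were -0.59, -0.45, -0.51 and -0.82 on arrays 1 to 4, all with decimals. The mean was -0.59 ± 0.16 (SD, n = 4 arrays), a 1.51-fold lower signal, and -0.67 without array 3. Array 3 lay among the other arrays here. Where this probe lies relative to the mutated part of the gene is not known here, so the value does not check the labels.

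Of 22 measured pluripotency genes, 6 (27.3%) were called lower and 0 higher, against 4.31% and 0.35% of all genes, and 17 had a mean below 0. The median of the list was -0.26, against 0.02 over all genes, and it was -0.30, -0.19, -0.05 and -0.35 on arrays 1 to 4. Without array 3 the median was -0.28 and 8 genes (36.4%) were called lower, against 10.6% of all genes. The 6 were Zfp42, Pou5f1, Fgf4, Sall4, Nr0b1 and Klf2. In a bulk RNA source, fewer cells of a type and less RNA per cell cannot be told apart.

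Promoter sequences are shown for Zfp42 and Pou5f1, which had the lowest ratios of the pluripotency list, and for Mcm5, a replication gene called lower. They are from RefSeq (GRCm38.p6), given 5′ to 3′ on the gene's own strand, 120 bases each. In each sequence capitals mark the matches to 1 motif: the octamer bound by Oct4 (ATGCAAAT) in Zfp42, the nuclear receptor motif AGGTCA in Pou5f1, and an E2F motif (TTTCCCGC, TTTGGCGC or TTTCGCGC) in Mcm5. In Zfp42 the octamer reads ATTTGCAT, its reverse complement, and in Mcm5 a pair of overlapping matches, TTTCGCGC and GCGCCAAA, share bases. Matches to the CCAAT box, which was also searched, are left in lower case, such as the attgg that begins 12 bases before the start of Pou5f1. The windows are chr8:43307116-43307235 on the minus strand for Zfp42, chr17:35505912-35506031 on the plus strand for Pou5f1 and chr8:75109316-75109435 on the plus strand for Mcm5.
Zfp42: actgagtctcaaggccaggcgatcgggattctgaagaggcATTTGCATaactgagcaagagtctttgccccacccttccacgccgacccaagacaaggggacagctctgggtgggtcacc
Pou5f1: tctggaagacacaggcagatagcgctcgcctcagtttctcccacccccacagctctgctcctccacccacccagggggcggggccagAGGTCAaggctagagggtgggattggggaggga
Mcm5: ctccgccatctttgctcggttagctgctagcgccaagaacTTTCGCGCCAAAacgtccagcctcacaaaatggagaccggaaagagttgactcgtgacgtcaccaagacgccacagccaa

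The octamer of Zfp42 begins 186 bases before the gene's start, the AGGTCA of Pou5f1 33 bases before it, and the first E2F match of Mcm5 153 bases before it. A further promoter entry of Pou5f1, not shown, held 0 matches to AGGTCA. On either strand of the 250 bases before the start, the octamer was found in 1.60% of 32851 mouse promoters, AGGTCA in 14%, an E2F motif in 1.53% and the CCAAT box (CCAAT) in 33.8%. Promoters were looked for in 36 genes: the 15 lowest and 15 highest named genes given below, Sall4, Pou5f1, and up to 4 called genes of the pluripotency and cell cycle lists. Of these genes 32 matched, with 40 promoters. Eif1a, Sall4, Siglec1 and Stmn2 had no entry. In these 40 promoters the octamer was found in 1, that of Zfp42, and an E2F motif in 1, that of Mcm5. AGGTCA was found in 7 and the CCAAT box in 18. A match is a description of these letters only.

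Zfp42 encodes Rex1, a zinc finger protein used as a marker of undifferentiated embryonic stem cells. Its log2 ratios were -2, -2, -1 and -2 on arrays 1 to 4, with a mean of -1.75 ± 0.50 (SD, n = 4 arrays) and -2 without array 3. The ratio of the Pou5f1 probe was -1 on each of the 4 arrays, which corresponds to a 2-fold lower signal within the range that a whole number stands for. All 8 values of these 2 genes lacked decimals.

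Fgf4, a growth factor secreted by embryonic stem cells, kept its decimals and read -0.64, -0.79, -0.46 and -0.51, with a mean of -0.60 ± 0.15 (SD, n = 4 arrays). Nr0b1, which encodes the orphan nuclear receptor Dax1, read -0.66, -0.63, -0.29 and -0.79, with a mean of -0.59. Klf2, one of the Krüppel-like factors of naive pluripotency, read -0.57, -0.58, -0.06 and -1. In these last genes array 3 was nearest to 0 and all 4 arrays were below it. Klf4, of the same family, was below 0 on 3 arrays (-0.51, -0.73 and -0.87) and at 0.03 on array 3. It was called only without array 3, with a mean of -0.74, as was Dppa5a, with -1 on 3 arrays and 0 on array 3.

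Other members lay closer to 0 or split between arrays. Esrrb, an orphan nuclear receptor of the pluripotency network, was below 0 on all 4 arrays (-0.47, -0.38, -0.62 and -0.46), and its mean of -0.48 ± 0.10 (SD, n = 4 arrays) missed the size asked of a call. Rif1, a telomere and replication timing protein, had a mean of -0.28 and Gdf3, a TGF-beta family ligand, one of -0.20, both below 0 on all 4 arrays. Lin28a, an RNA-binding protein that blocks let-7 maturation, read -1 on arrays 1 and 2 and 0 on arrays 3 and 4. Dnmt3l, a cofactor of de novo DNA methylation, had the highest mean of the list at 0.50, from 0, 1, 1 and 0. Klf5 had a mean of 0.07 and Trim28, a corepressor of endogenous retroviruses, 0.14, and neither had 4 arrays on one side of 0. Nanog and Sox2 were not analysed here.

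**Figure D2:**
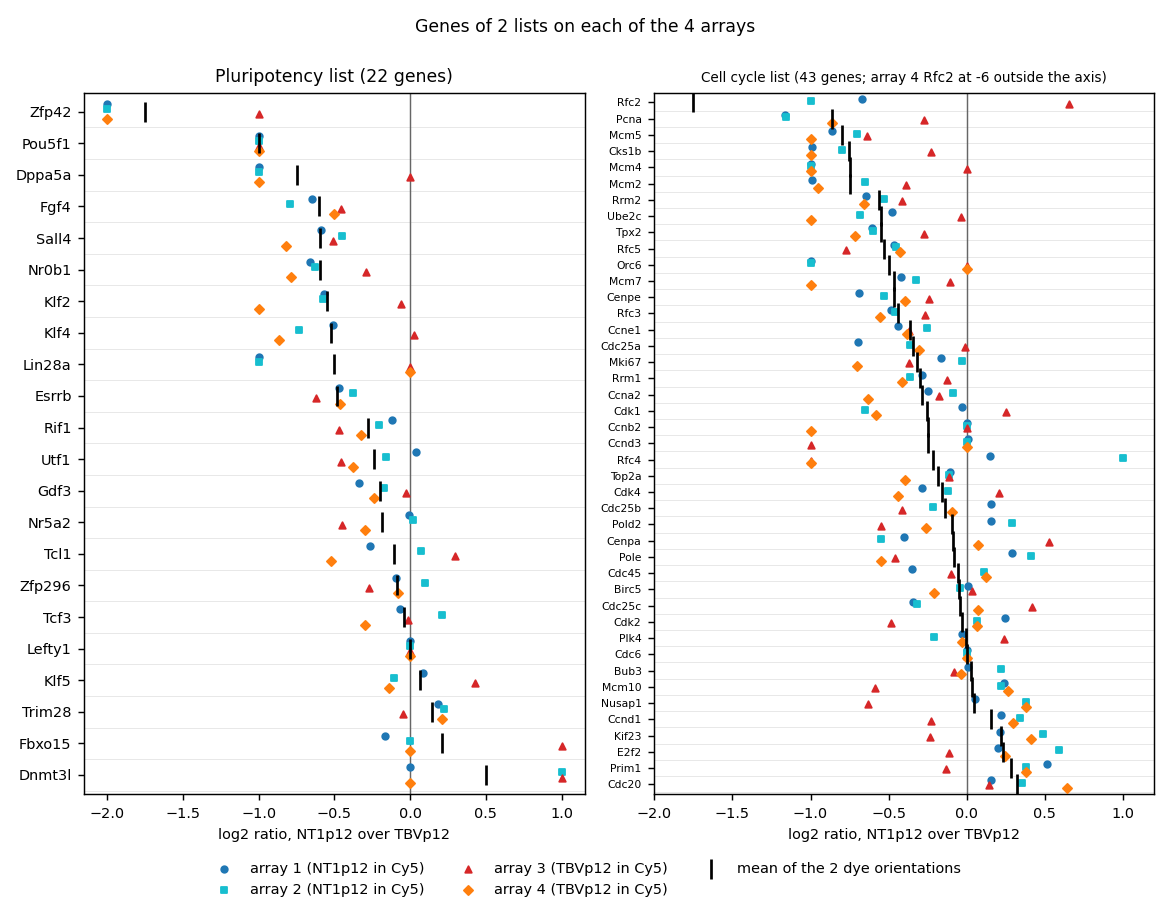
Log2 ratios (NT1p12 over TBVp12, x axis) of the 22 pluripotency genes and 43 cell cycle genes, with 1 symbol per array and a bar for the mean of the 2 dye orientations. Most bars lie left of 0, array 3 is often the point nearest to 0 or above it, and array 4 of Rfc2 at -6 lies outside the axis.

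Markers of other cell types were counted beside these. The shares of all genes to set beside each count are 4.31% lower and 0.35% higher, and without array 3 10.6% and 1.58%. Of 21 fibroblast genes 2 (9.52%) were called lower and 0 higher, with a median of -0.22 (-0.13, -0.25, -0.15 and -0.18 on arrays 1 to 4) and -0.25 without array 3, where 5 (23.8%) were called lower. Col1a1, a chain of type I collagen, read -0.43, -0.78, -0.26 and -1, and Pdgfrb, a receptor of mesenchymal cells, read -0.41, -0.94, -0.12 and -0.97. Their part in the pluripotency ratios was not tested. Of 10 neural genes 3 were called lower, Map2, Syp and Stmn2. The median was -0.22, from -0.10, 0.13, -0.12 and -0.30 on arrays 1 to 4, with array 2 above 0. Without array 3 it was -0.26, also with 3 genes called, with Nefm, a neurofilament gene, in place of Stmn2, and without array 4 it was -0.069. These cytoskeletal and synaptic genes had means of -0.58, -0.57 and -0.51. Stmn2 was not called without array 3, where its mean was -0.42, and its 3 probes disagreed (-1.50, -0.37 and 0.33), so its call is uncertain.

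Of 14 endoderm genes 2 (14.3%) were called lower, with and without array 3. The median was -0.16, and -0.036 without array 3. Apoe, an apolipoprotein, read -0.63, -0.56, -0.52 and -0.84, a mean of -0.64 ± 0.14 (SD, n = 4 arrays), with no whole number. Sparc, a matrix protein abundant in parietal endoderm, read -0.37, -0.22, -0.15 and -3.50, so that array 4 set its mean of -1.06. Of 8 germ cell genes and of 5 mesoderm genes 0 were called in either direction. The germ cell median of 0.15 was the highest of the 26 lists, and it was 0.22 without array 3. The mesoderm median was 0.05, and 0.10 without array 3, where the mesoderm and blood factor Tal1 was called higher, with a mean of 0.56.

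Among 11 trophectoderm genes 1 was called in each direction, with and without array 3. The median was -0.01 in both cases, and 0.07 when arrays were centred on the mean, against 0.09 for all genes. Krt18, a simple epithelial keratin, was the only list gene called higher, at 0.70, 0.90, 0.28 and 0.68, with a mean of 0.64 ± 0.26 (SD, n = 4 arrays) and 0.74 without array 3. All 4 values had decimals. Krt19, another simple epithelial keratin, read 0.38, 0.87, 0.30 and 0.22, and Cldn4, a tight junction protein, read 0.44, 0.85, 0.24 and 0.35. Both were above 0 on all 4 arrays, with means of 0.44 and 0.47 just short of the size of a call, and so was Tead4, a trophectoderm transcription factor, at 0.22. Ascl2, a trophoblast transcription factor, lay on the other side at -0.93, -0.72, -0.38 and -1. Of the 11 genes 6 had a mean below 0. Besides Ascl2, Mmp9 was below 0 on all 4 arrays, with a mean of -0.15. Rhox5, Cldn6, Bmp4 and Lgals3 had means of -0.25, -0.10, -0.10 and -0.01.

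Of 43 genes of DNA replication and cell division 8 (18.6%) were called lower and 0 higher, against 4.31% and 0.35% of all genes, and 34 had a mean below 0. The median was -0.25, with -0.25, -0.21, -0.18 and -0.39 on arrays 1 to 4, so that array 3 lay on the same side as the others. Without array 3 it was -0.32 and 12 genes (27.9%) were called lower, against 10.6% of all genes. The 8 were Pcna, Mcm5, Cks1b, Mcm2, Rrm2, Ube2c, Tpx2 and Rfc5.

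Mcm2 and Mcm5 encode subunits of the replicative helicase. Mcm2 read -0.99, -0.65, -0.39 and -0.95, with a mean of -0.75 ± 0.28 (SD, n = 4 arrays), and Mcm5 read -0.86, -0.70, -0.64 and -1. Of further helicase subunits, Mcm4 read -1, -1, 0 and -1 and Mcm7 read -0.42, -0.33, -0.11 and -1, and both were called only without array 3. Rrm2, the small subunit of ribonucleotide reductase, read -0.64, -0.53, -0.42 and -0.66, with an SD of 0.11 that was the smallest among the called genes of the list. Rfc5, a subunit of the clamp loader, read -0.47, -0.45, -0.77 and -0.43, with array 3 the farthest from 0. Without array 3 it was at -0.44 and no longer called.

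Of the mitotic genes, Tpx2, a spindle assembly factor, read -0.61, -0.60, -0.27 and -0.71. Ube2c, which feeds ubiquitin to the anaphase-promoting complex, read -0.48, -0.68, -0.04 and -1. Cks1b, a binding partner of cyclin-dependent kinases, read -0.99, -0.80, -0.23 and -1. In each of these 3 genes array 3 was nearest to 0. The proliferation marker Mki67 had 4 values below 0 and missed a call, while Cdc20 was above 0 on all 4 arrays with a mean of 0.32, the highest of the list. Prim1, a DNA primase subunit, and Kif23, a kinesin of cytokinesis, had means of 0.28 and 0.22 and were above 0 on arrays 1, 2 and 4.

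The clamp protein Pcna was measured by 2 probes that disagreed. One read -2, -2, -1 and -2, and the other had a mean of 0.02. The gene mean of -0.86 rests on the first probe, so Pcna is uncertain. The clamp loader gene Rfc2 had the lowest mean of the list, -1.75, from -0.67, -1, 0.66 and -6, and was not called, since array 3 lay above 0.

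Of 38 cytosolic ribosomal protein genes 5 (13.2%) were called lower and 0 higher, against 4.31% and 0.35% of all genes, and 32 had a mean below 0. The median of -0.47 was the lowest of the 26 lists. It was -0.66, -0.53 and -0.67 on arrays 1, 2 and 4 and 0 on array 3, and without array 3 it was -0.63 and 21 genes (55.3%) were called lower, against 10.6% of all genes. Of the 38 genes, 12 read -1 or less on arrays 1, 2 and 4 and 0 or more on array 3. Among the 12 were Rpl4, Rpl8, Rps14 and Rps24, each at -1, -1, 0 and -1. On the other side, Rpl15 was above 0 on all 4 arrays with a mean of 0.45, and Rpl27 and Rpl7 were above 0 on arrays 1, 2 and 4.

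The 4 called ribosomal genes with means farthest below 0 were Rpl9, Rpl19, Rpl13 and Rpl28. Rpl9 read -0.84, -0.93, -0.49 and -1, with a mean of -0.81 over 2 probes. Rpl19, a protein of the large subunit, read -0.88, -0.69, -0.38 and -1, with a mean of -0.74. Rpl13 read -0.99, -0.53, -0.08 and -0.93 with no whole number, and its mean was -0.63. Ribosomal protein genes have many near-identical pseudogene copies, so a probe may have read more than 1 of them.

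Of 29 translation factor genes 5 (17.2%) were called lower and 0 higher, and without array 3 12 (41.4%) were called lower, against 4.31% and 10.6% of all genes. The median of -0.27 moved with the arrays, to -0.49 without array 3, -0.17 without array 1 and -0.077 without array 4. Eif1ax and Eif2s3x, initiation factors encoded on the X chromosome, read -1 on all 4 arrays. Eif3h, a subunit of the initiation factor that binds the small ribosomal subunit, read -0.93, -1, -0.72 and -2. Eef1b2, an exchange factor of elongation, had a mean of -0.73. All 4 arrays were below 0 for each of these. Eif4a1, the helicase of the cap-binding complex, had a mean of 0.15 and lay on both sides of 0.

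Of 30 proteasome genes 3 (10%) were called lower, against 4.31% of all genes, and the median was -0.21. Without array 3 the median was -0.31 and 11 (36.7%) were called, against 10.6% of all genes, and without array 4 the median was -0.13. Psma6, a subunit of the core particle, read -1, -1, -1 and -2, Psmd11 had a mean of -0.71 and Psmd1 one of -0.69, both of the regulatory particle. The list median was 0 on array 3. Of 48 splicing and hnRNP genes 3 were called lower, Snrpa1, Srsf10 and Hnrnpa2b1. These are 6.25%, near the 4.31% of all genes. The median of -0.25 was again 0 on array 3. Without array 3 17 (35.4%) were called lower, against 10.6% of all genes, with a median of -0.34, and without array 4 the median was -0.12. Snrpa1, a protein of the U2 snRNP, read -0.98, -0.77, -0.49 and -0.66 with no whole number.

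Of 66 oxidative phosphorylation genes 8 (12.1%) were called lower and 0 higher, and without array 3 19 (28.8%) lower and 2 higher, against 4.31% and 10.6% of all genes lower. The median was -0.06, or -0.15 without array 3, and 0.02 with mean centring, against 0.09 for all genes. Complex I had 3 called of 29 measured, ATP synthase 3 of 14, complex III 0 of 7 and complex IV 0 of 14. Without array 3 these were 8, 4, 3 and 2. The only measured subunit of complex II, Sdhd, was called at -0.55, and so was cytochrome c (Cycs), at -1 on all 4 arrays. Atp5g3 and Atp5g1 encode the same membrane subunit of ATP synthase. They read -0.98, -0.83, -0.61 and -2, and -0.87, -0.75, -0.56 and -1. All 8 values were below 0.

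Of 42 mitochondrial ribosomal protein genes 3 (7.14%) were called lower, against 4.31% of all genes. The median was -0.06, and 0.01 with mean centring, against 0.09 for all genes. Without array 3 the median was -0.11 and 7 (16.7%) were called lower, against 10.6% of all genes. Of 52 chaperone genes 5 (9.62%) were called lower, and 9 (17.3%) without array 3, against the same shares of all genes. The median was 0.00, or 0.01 without array 3, and on the other side of 0 when arrays were scaled to one spread. Hspa8, the constitutive heat shock cognate, read -0.78, -0.58, -0.26 and -0.98 with no whole number. Hsp90aa1, the inducible cytosolic form of another chaperone, had a mean of 0.22. In the stress list of 20 genes 3 (15%) were called lower, with a median of -0.05, and 0.02 with mean centring. Without array 3 5 (25%) were called lower and 1 higher, with a median of -0.18. Among them was Sod2, the mitochondrial superoxide dismutase, with a mean of -0.64 ± 0.11 (SD, n = 4 arrays).

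Of 15 imprinted genes 2 (13.3%) were called lower, and 3 (20%) without array 3, against 4.31% and 10.6% of all genes. Without array 3 the median moved from -0.08 to -0.15. The 2 were Slc38a4 at -1 on all 4 arrays and Ascl2, while H19 and Igf2 lay on both sides of 0. Of 18 chromatin genes 2 (11.1%) were called lower, and 3 (16.7%) without array 3, where the median moved from -0.10 to -0.18. The 2 were Arid1a, a subunit of the BAF remodelling complex, at a mean of -1.25, and Ring1, a Polycomb ubiquitin ligase subunit, at -0.73. Bmi1, another Polycomb subunit, was at 0.54, 0.72, -0.29 and 0.65 and was called higher only without array 3. Of 12 genes of the NuRD complex and its partners, which bind Sall4, 0 were called in either direction. Without array 3, 2 (16.7%) were called lower. These were Chd3, a remodelling ATPase, with a mean of -0.87 without array 3, and Rbbp7, a histone-binding subunit, with -0.76. The median of the list was -0.10, and -0.15 without array 3, and it was 0.33 on array 3 against -0.14, -0.26 and -0.12 on arrays 1, 2 and 4.

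Calls lower in the lists of CDK inhibitors and p53 targets (2 of 14), glycolysis and hypoxia (1 of 20), cholesterol synthesis (1 of 10), actomyosin and YAP targets (1 of 24), adhesion (2 of 25), interferon and antigen presentation (1 of 9) and signalling readouts (0 of 11) were as many as given, with 0 higher in each. Ccng1, a p53 target, read -0.65, -0.49, -0.40 and -0.65. Ldha, the muscle-type lactate dehydrogenase, had a mean of -0.64, and Itgb1, the shared beta chain of many integrins, had a mean of -0.54 over 5 probes. The medians of these lists lay between -0.04 and 0.06, and those of the actomyosin, interferon and signalling lists turned above 0 when arrays were centred on the mean, with all genes at 0.09. Without array 3 the counts of lower genes, in the same order, were 3, 1, 1, 5, 2, 2 and 0, with medians between -0.16 and 0.03. The shares of all genes called lower are 4.31%, and 10.6% without array 3.

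**Figure D3:**
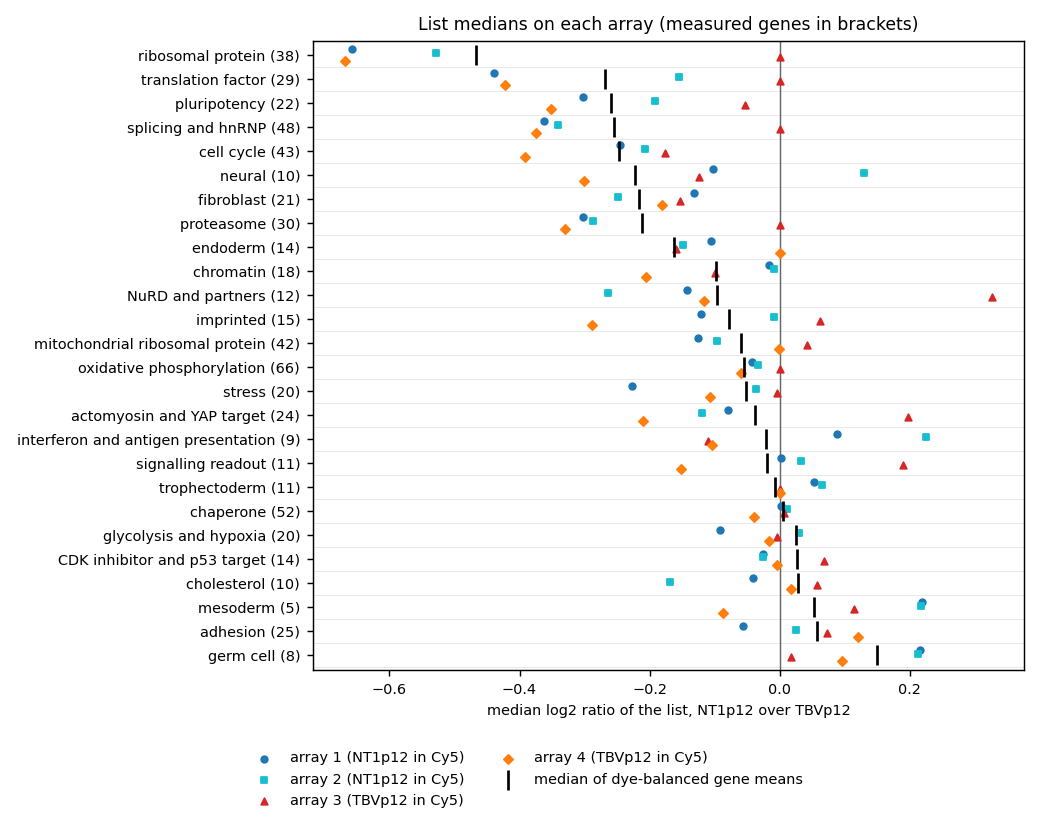
Median log2 ratio (NT1p12 over TBVp12, x axis) of each of the 26 gene lists on each array, with a bar for the median of the dye-balanced gene means and the number of measured genes in brackets. Ribosomal protein genes have the lowest bar (-0.47), and array 3 (triangles) lies at 0 for the ribosomal, translation factor, proteasome and splicing lists, where the other arrays lie below it.

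Of the 55 genes of the lists named by rule as lower, 54 were also called lower without array 3, with Stmn2 the exception. This count is nearly fixed by the choice, as every called gene had all its arrays on the same side by the rule of the call. It is therefore no support for these genes.

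Ranked over all probes by the mean of the 2 orientations, the 15 lowest named genes were nearly all measured in whole numbers. For 14 of them all 4 values lacked decimals, so that their order carries little. Rara, the retinoic acid receptor alpha, read -2, -1, -2 and -2. Glo1, which detoxifies methylglyoxal, read -2, -2, -1 and -2, and so did Pigf, an enzyme of the GPI anchor pathway. Without array 3 the means of the 15 ran from -2.25 to -1.50. Glo1, Pigf and Rara each had 1 probe and a mean of -1.75, a 3.36-fold lower signal, and so had Zfp42.

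For several others a further probe of the same gene did not show the ratio. Glul, glutamine synthetase, was at -1.75 on one probe and 0.00 on another. Knop1, a nucleolar protein, was at -1.75 and -0.01, and Tns1, the focal adhesion protein tensin 1, at -1.50 and 0.04. Chchd4, of the mitochondrial import machinery, was at -1.75 and -0.40. Eprs, a tRNA synthetase, was at -1.50, with further probes at -0.87 and -0.45 on the same side, and Stmn2 was at -1.50, -0.37 and 0.33. These genes, apart from Eprs, are uncertain. Cacybp, Eif1a, Phtf2 and 4921518K17Rik, each with 1 probe, were at -1.50.

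The 15 highest named genes had means nearer to 0 than the 15 lowest and mostly kept their decimals, with 9 free of whole numbers. Without array 3 their means ran from 0.48 to 1, and Clcn4, Prodh and Siglec1 were short of the size of a call. Pld2, phospholipase D2, read 1 on all 4 arrays. Wnk1, a kinase that controls ion transporters, read 0.96, 1, 0.56 and 1. Syne4, a nesprin of the nuclear envelope, read 0.93, 1, 0.54 and 1. In the last pair of genes array 3 was the lowest, and Mettl7b showed the same order at 0.90, 1, 0.24 and 1. Snx18, a sorting nexin of endocytosis, read 0.95, 0.68, 0.63 and 0.90, the largest ratio with decimals throughout, with a mean of 0.79 ± 0.16 (SD, n = 4 arrays).

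Aqp1, a water channel, read 0.79, 0.81, 0.49 and 0.53, with a mean of 0.66 ± 0.17 (SD, n = 4 arrays). Ccdc103, a factor of ciliary dynein arms, had a mean of 0.69, and Angptl7, a secreted angiopoietin-like protein, one of 0.65. Krt18 followed at 0.64. Cdk5rap3 at 0.58, Prodh, the proline dehydrogenase, at 0.57 and Siglec1, a sialic acid receptor of macrophages, at 0.56 completed the genes with decimals and 1 probe. Mcpt8, a protease, was at 0.74. Spaca6, a sperm membrane protein, was at 0.86 with a further probe at 0.21, and Clcn4, a chloride transporter, at 0.59 with a further probe at 0.17.

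**Figure D4:**
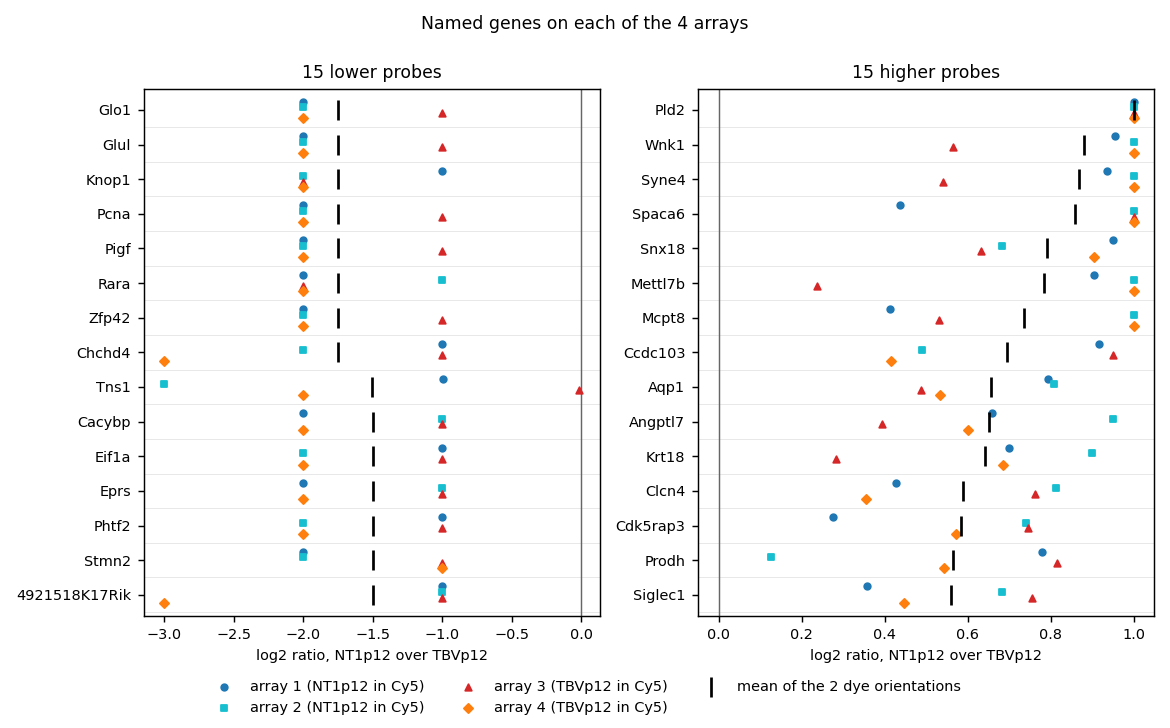
Log2 ratios (NT1p12 over TBVp12, x axis) of the 15 lowest and 15 highest named probes on each array, with a bar for the mean of the 2 dye orientations. The lower genes sit on whole numbers between -3 and -1 except for Tns1, while most of the higher genes spread between 0.13 and 1.

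Genes whose values all kept decimals are less coarse and were looked at after the values were seen. Of 6535 such genes, 150 were called lower and 21 higher, against 333 (4.31%) and 27 (0.35%) of all 7719 genes. As every value of 1 or more in size lacked decimals, such genes hold none, and large ratios are left out by construction. Their counts of calls are therefore not read as a result. Adam15, a membrane metalloprotease, had the lowest mean at -0.80 ± 0.22 (SD, n = 4 arrays), from -0.94, -0.77, -0.51 and -0.99. Washc1, a subunit of the WASH complex that nucleates actin on endosomes, read -0.74, -0.89, -0.69 and -0.79, and its SD of 0.09 was the smallest of the 12 lowest genes. Tcof1, the nucleolar protein treacle, read -0.84, -0.85, -0.45 and -0.90. The next were Ppp1cb, a catalytic subunit of protein phosphatase 1, at -0.75, Mcm2 at -0.75, the transcriptional repressor Cic at -0.74 and Wasf3, an activator of actin branching, at -0.73. Snrpa1, Hbp1, Usp31, Ech1 and Isy1 followed between -0.73 and -0.69. On the higher side, besides genes already named, were Aass, an enzyme of lysine breakdown, at 0.63, Lrrc69 at 0.60, Prrg2 at 0.55 and Ly6k at 0.55.

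By chromosome, 7655 of the genes could be placed on the 19 autosomes and X. The median ratio ranged from -0.01 on chromosome 12 to 0.04 on chromosome 16. The share of genes called lower ranged from 1.14% on chromosome 16 (3 of 264) to 7.26% on the X chromosome (13 of 179). Without array 3 the medians ran from -0.04 to 0.03. No test was made of this spread.

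The comparison with NT1p14 against TBVp13, which had 5 arrays, asked where the 2 source pairs differed. Each gene with a value on all 9 arrays was tested by a two-sided exact permutation of the arrays. The 126 ways to divide the arrays allow no p below 0.0079, and 0 of 6233 genes (0%) passed after Benjamini-Hochberg adjustment over all of them (smallest adjusted p = 0.13, exact permutation). At an unadjusted p under 0.05 there were 1857 genes. The arrays are technical repeats, so the test compares the source pairs as hybridised and not the passages. It used plain means of the arrays and took no account of dye orientation.

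Sall4 was at -0.59 in NT1p12 with TBVp12 and at 0.09 over the arrays of NT1p14 with TBVp13, which ranged from -0.18 to 0.39. The groups did not overlap, and the difference of -0.68 had the smallest p the test allows (exact permutation p = 0.0079, adjusted p = 0.13 over all genes). A small p was not rare, as 1857 of the 6233 genes had an unadjusted exact permutation p under 0.05. How many genes reached the smallest p is not given here. Pou5f1 differed by -0.80 (exact permutation p = 0.048, adjusted p = 0.16), and its values in the other pair ran from -1 to 0. Fgf4 was at -0.52 there against -0.60 here, a difference of -0.08 (exact permutation p = 0.62, adjusted p = 0.77). Krt18 was at 0.37 there against 0.64 here (exact permutation p = 0.14, adjusted p = 0.29).

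Values from here on are means of the 2 dye orientations, while those beside the permutation test were plain means of the arrays. Of the 15 highest named genes 14 had a value there and 12 were below 0, and Snx18 was at -1.37 and Ccdc103 at -1.05. Of the 15 lowest, 13 had a value and 6 were below 0, Rara at -0.83, Stmn2 at -0.83, Zfp42 at -0.58, Glo1 at -0.50, Pigf at -0.42 and Glul at -0.17. Of the 55 lower genes named from the lists, 53 had a value there, 44 were above 0 and 7 below. The shares of all genes above and below 0 in the other source pairs were not counted, and these genes were chosen for their ratios here. Such tallies, here and in the next paragraph, are therefore not read as particular to these genes. The ribosomal protein median was 0.42 there against -0.47 here, the cell cycle median 0.09 against -0.25, the pluripotency median 0.10 against -0.26 and the fibroblast median 0.30 against -0.22.

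In NT1 1 with TBV2, on 2 arrays, 8 of the 15 highest named genes were above 0 and 7 below, with Mcpt8 at -0.66 and Pld2 at -0.50. Of the 15 lowest, 11 were below 0 and 4 above, Phtf2 at 1.00, Chchd4 at 0.48, Eif1a at 0.40 and Tns1 at 0.19. Sall4 was at -0.32 in that pair, Pou5f1 at -0.51, Fgf4 at -0.28, Rara at -0.93 and Pigf at -0.63, and Zfp42 was at -0.01. NT1p12 with TBVp13, also on 2 arrays, shares the NT1p12 source with the comparison described here. There Sall4 was at -0.22, Pou5f1 at -0.50, Fgf4 at -0.61, Krt18 at 0.38, and Zfp42, Rara and Pigf at -1. Wnk1, Syne4, Snx18, Aqp1, Mcm2 and Mcm5 were at 0 in that pair, and Tns1 was at 0.50. Many values of that pair were exactly 0, 0.50 or -1, and its loss of decimals was not counted. A gene or list median at 0 there may therefore stand for a range of ratios. The ribosomal, translation factor, proteasome, splicing and cell cycle medians were 0 there, the pluripotency median -0.06 and the fibroblast median 0.07. Aass, at 0.63 here, was at 0.85 there and at 0.34 in NT1 1 with TBV2. Aass was picked after its values were seen.

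**Figure D5:**
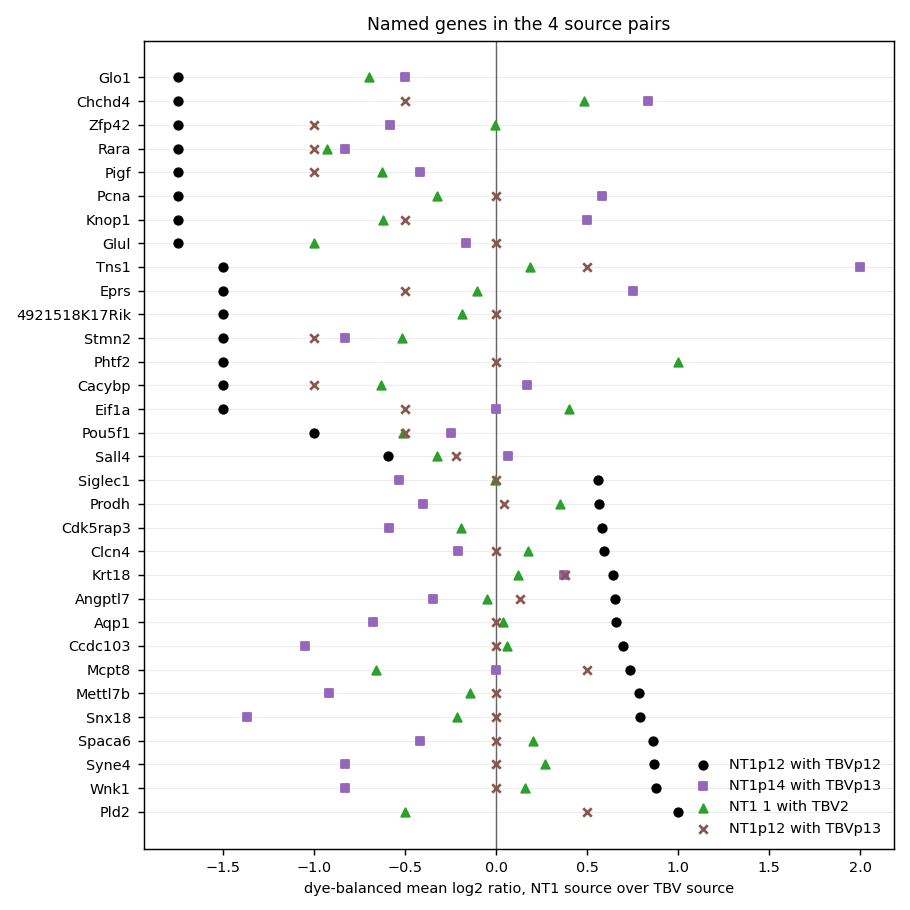
Dye-balanced mean log2 ratio (NT1 source over TBV source, x axis) of the 32 named genes in the 4 source pairs. For the higher genes the squares of NT1p14 with TBVp13 lie mostly below 0, where the dots of NT1p12 with TBVp12 lie between 0.56 and 1.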

How the data were processed

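The deposited table gives 1 value per probe and array for 20205 probes, which was read as a log2 ratio of the 2 channels as the authors deposited it. The numerator, log base, scanner, background correction and within-array normalisation are not given in the sources used here. GEO's platform annotation gives 1 symbol for 11723 probes, which were used for genes, several for 806 and none for 7676. An Entrez ID found 11590 of the probes in RefSeq (GRCm38.p6), and 0 symbols were updated.

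Arrays were centred on their medians, arrays with TBVp12 in Cy5 were multiplied by -1, and the 2 dye orientations were averaged with equal weight, so that a dye effect cancels. Over probes the SD of this mean was 0.32 and that of the dye part 0.26. Arrays 1 to 4 had values for 18316, 17517, 16000 and 18078 probes. Probes of a gene were averaged. A gene needed a value on all 4 arrays, all on one side of 0, and a mean of at least 0.5 to be called.

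The named genes were Sall4 and Pou5f1, the 15 probes with the largest mean in each direction (1 symbol, 4 values on one side, the smaller orientation mean at least 0.5 of the larger), and up to 4 called genes of each of 26 lists and direction. Other genes were named after their values were seen. The members and lists were chosen with earlier results of these data known.

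Source pairs were compared by exact permutation of arrays. An adjustment over the 67 named genes tested had been planned. As these were chosen on their ratio here, the text gives the adjustment over 6233 genes instead. The steps were tested on simulated data. Python 3.11.15, pandas 2.3.3, numpy 2.4.6 and matplotlib 3.10.9 were used. Alternatives covered centring, scaling, dye orientation, missing values, size of the call, zeros, lost decimals, averaging of probes and leaving out arrays.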

Additional observations from a re-analysis of the deposited data

Results flagged for a closer look

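Among 107 groups of 4 array values (named genes and list medians), 20 held an array far from the other 3. Chance marks about 1 in 20 such groups, and whole numbers with 3 equal values are marked whenever the last differs. Array 3 was the distant one in 10, array 1 in 5, array 4 in 4 and array 2 in 1.

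On array 3, Wnk1 was at 0.56, Syne4 at 0.54 and Mettl7b at 0.24, each below the other arrays at 0.90 to 1. Array 3 also read -1 for Glo1, Glul, Pcna, Pigf and Zfp42, where the others read -2. The proteasome and splicing medians were 0 on array 3, where the others lay between -0.38 and -0.29.

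On array 1, Spaca6 was at 0.44 against 1, Knop1 at -1 against -2, Psat1, an enzyme of serine synthesis, and Arid1a at -2 against -1, and Sod2 at -0.81 against -0.59. On array 2, Rara was at -1 against -2. On array 4, 4921518K17Rik was at -3 against -1, Sparc at -3.50 against -0.37 to -0.15, Mrpl23, a mitochondrial ribosomal protein, at -1 against -0.63 to -0.56, and Psma6 at -2 against -1. The genes named here had all 4 values on one side of 0 by the rule that named them. The medians of both lists were below 0 without array 3.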

How the results depend on the processing

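The main counts were 27 genes higher and 333 lower. They became 334 and 992 with only the arrays that have NT1p12 in Cy5, 219 and 506 with only those that have TBVp12 in Cy5, 53 and 544 with zeros allowed, and 1 and 56 at a log2 ratio of 1. Centring on the mean gave 83 higher, a value in each orientation 558 lower of 8814 genes, and probes with decimals on all arrays 162 lower of 6807 genes. Leaving out 1 array gave 36 to 122 higher and 232 to 822 lower, the highest of both without array 3, and 55 higher without array 1 and 45 without array 4. The fibroblast median was -0.14 with mean centring and -0.13 with decimals only, and -0.27 to -0.24 with 1 array left out. With decimals only, the ribosomal median was -0.12 and the cell cycle median -0.091. That filter removes every ratio of size 1 or more, so the move of these medians towards 0 is fixed by its construction. The translation factor median ran from -0.49 (without array 3) through -0.17 (without array 1) to -0.077 (without array 4). The gene mean of Pcna turned to 0.024 with decimals only, since that probe alone was left. Adjusted over the 67 named genes, which were chosen on their ratio and give no independent evidence, 55 differed from NT1p14 with TBVp13, 25 to 32 with 1 array left out, and 0 over all genes. The causes of the other moves were not tested. Of the 26 list medians, 8 that lay between -0.06 and 0.00 changed side with mean centring or scaling. Mean centring moves all genes alike (median 0.09), so this shows only that they are near 0. Over the other named genes and settings, 953 values moved by less than the spread of the arrays and 21 by more, on the same side. The spread is that of the same arrays. With 1 array left out, 1 dye orientation or no centring, a move below it was therefore fixed in advance and is no support. Results without array 3 as a set, and the adjustment over all genes, were added after seeing the data.

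No paired analysis was possible because the arrays of the source pairs compared are separate hybridisations of different RNA sources, and their numbers are in accession order. The arrays are technical repeats, signal over background is unknown, ratios of 1 or more are whole numbers, and the sign of all values rests on Cy5 as numerator.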
